A study of Mus musculus with 16 samples.

Results

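The hepatocyte identity transcription factors examined here are 9 genes: Hnf4a, Foxa1, Foxa2, Foxa3, Cebpa, Onecut1, Onecut2, Prox1 and Nr2f2. They were found in the table by symbol, each has 1 entry in the table, and they make up 9 of its 27446 entries. Liver RNA was sequenced in 16 libraries from wild-type C57BL/6 mice. The 8 emodin livers came from mice that received emodin, an anthraquinone of rhubarb, into the stomach at 400 mg/kg for 3 weeks, suspended in 0.5% CMC-Na (sodium carboxymethyl cellulose). The 8 vehicle livers came from mice that received 0.5% CMC-Na without emodin, and livers of both groups were taken directly after euthanasia that followed the last dose. Both groups share the wild-type genotype and 7 days of acclimation. Age, sex and the number of animals behind each library are not given in the labels, so a liver below means 1 library and the p-values measure the spread between libraries.

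These factors are the DNA-binding proteins that set up and hold the gene programme of hepatocytes, the parenchymal cells of the liver. HNF4A, a nuclear receptor, and the FOXA forkhead proteins, which can open closed chromatin, bind the control regions of many hepatocyte genes together with C/EBPα and the ONECUT proteins, and several of them bind the promoters of one another. PROX1 and NR2F2 (COUP-TFII) are used in hepatocytes and also in vascular cells, PROX1 in lymphatic and NR2F2 in venous endothelium. In whole liver, a lower level of a transcript through fewer cells of a type and a lower level per cell cannot be told apart.

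Library depth ran from 28.3 M to 48.2 M (mega) estimated counts. Counts were tested with edgeR's quasi-likelihood F test, and an entry that reached a Benjamini-Hochberg adjusted p under 0.05 over the 14308 entries tested is said to have passed. Of those entries 1884 passed (13.2%), 1102 higher under emodin (7.7%) and 782 lower (5.47%). Emodin livers 4, 5 and 8 stood apart from the others, with array weights (limma's estimate of how closely a library follows its group, on average near 1) of 0.376, 0.455 and 0.276. All 10 acute phase genes looked at, which the liver expresses in inflammation, passed higher (5 of 10 with array weights), and their summed level lay between 5828 and 7312 CPM (counts scaled to the size of the library, with TMM factors) in vehicle livers and between 7352 and 30439 CPM in emodin livers. Emodin liver 2, with an array weight of 0.786, was at 26498 CPM, above emodin livers 8 (22332 CPM) and 5 (16254 CPM). Without the 3 livers of low weight, a choice made after seeing the data, the same 1 of the 9 factors passed as with them.

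All 9 factors had enough counts to be tested, the lowest single value being 79 counts (Onecut1 in vehicle liver 2). Emodin livers carried less Nr2f2 mRNA than vehicle livers, by 1.47-fold, with no overlap between the groups. A complete separation of this kind, every emodin liver below every vehicle liver, was shown by 1 of 9 factors and by 1.03% of all entries, and the opposite one by 0 of 9 factors and by 0.937% of all entries. The fitted levels of Hnf4a and Foxa2 were higher under emodin, by 1.28-fold and 1.36-fold, but neither passed after adjustment. The other factors, Foxa1, Foxa3, Cebpa, Onecut1, Onecut2 and Prox1, did not pass either. Thus 1 of 9 factors passed (11.1%, beside 13.2% of all entries), 0 of them higher (7.7% of all entries) and 1 lower (5.47%). At an unadjusted p under 0.05 stood 3 of 9, beside 29.7% of all entries. Hnf4a and Nr2f2, 2 of 9, passed with DESeq2's Wald test (15.9% of its 15598 entries) and with total counts in place of TMM in edgeR (11.5% of entries), in each case with 1 of 9 higher (9.01% and 6.72% of entries). The median log2 fold change (emodin over vehicle) of the 9 factors was 0.08, beside 0.01 for all entries tested.

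**Figure D1:**
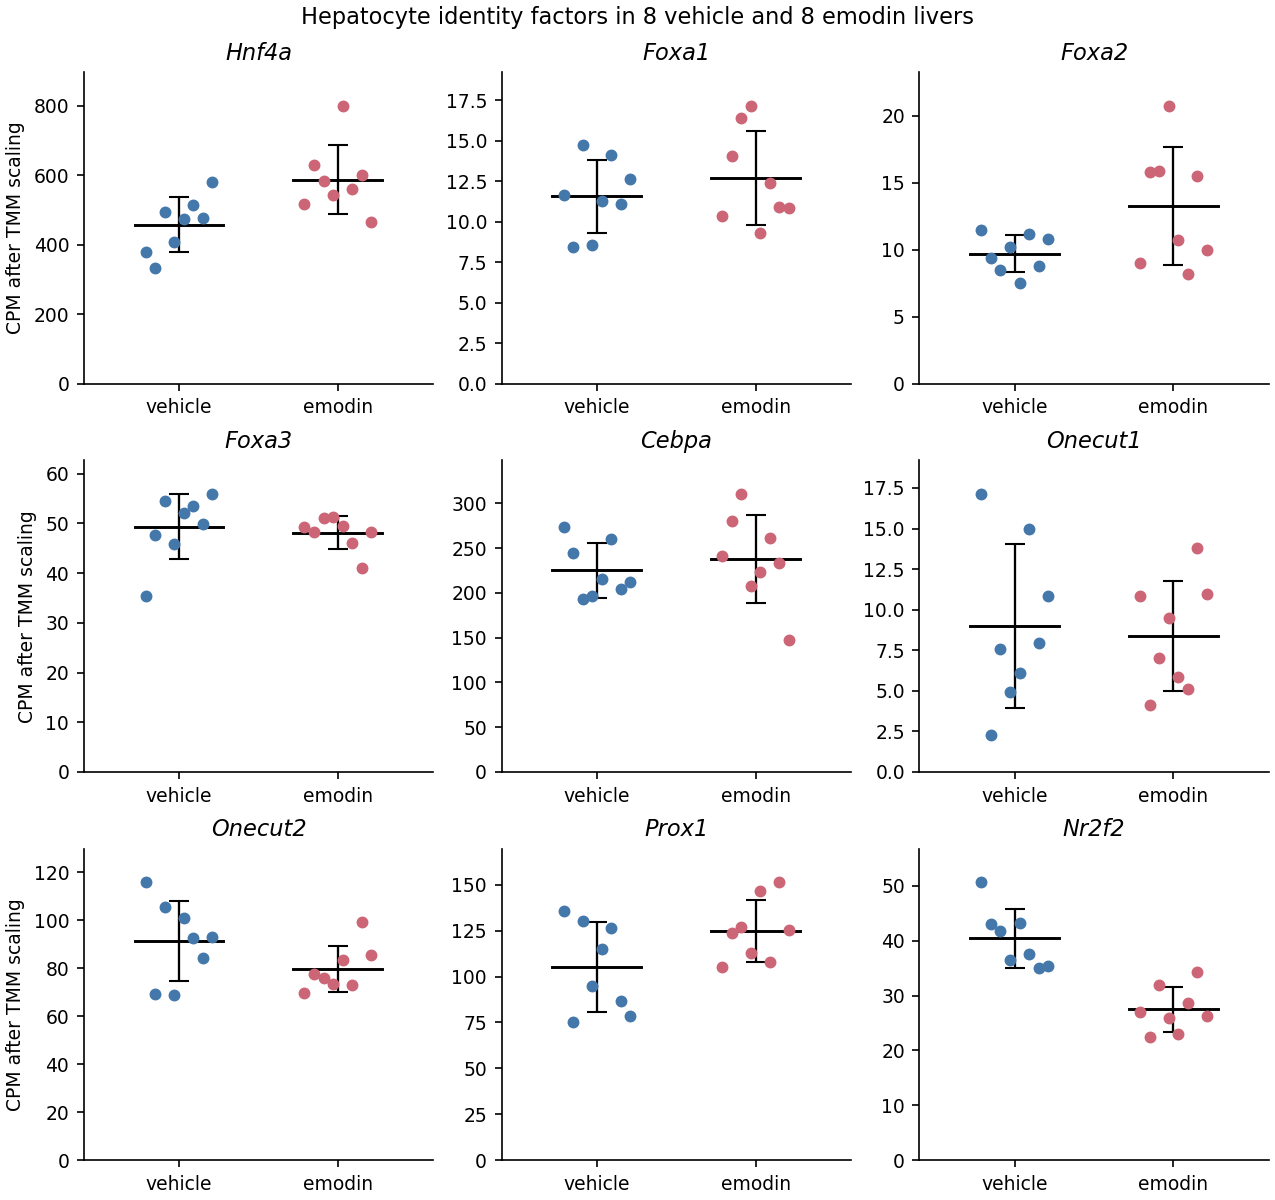
Level of each of the 9 factors in every liver, in CPM after TMM scaling on a linear axis from 0, with vehicle and emodin livers side by side; each point is 1 liver, and the bar and whiskers are the mean and SD of 8 livers. For Nr2f2 the highest emodin liver (34.4 CPM) lies below the lowest vehicle liver (35.0 CPM), while the groups overlap for the other 8 factors.

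**Figure D2:**
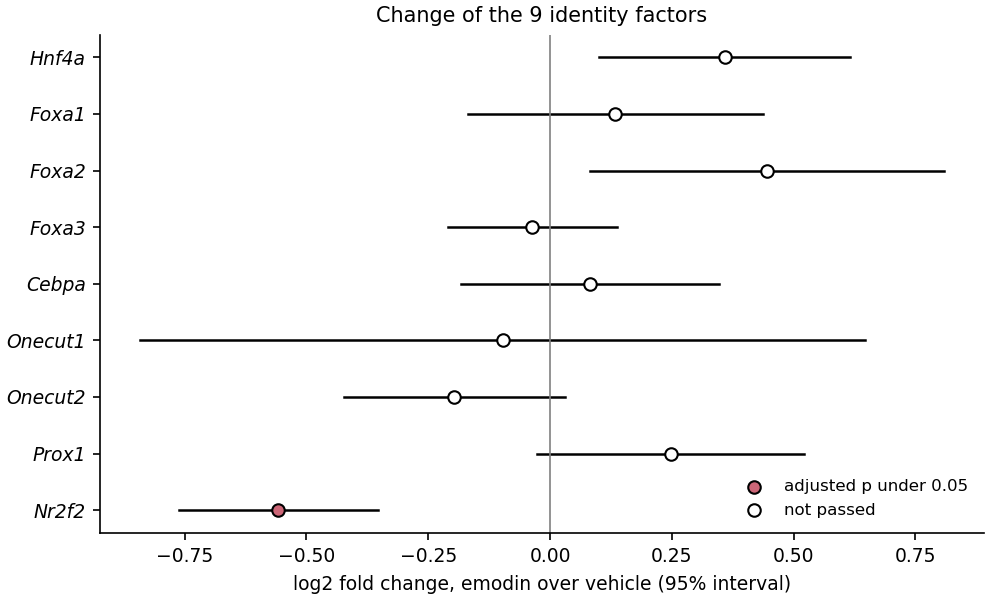
Log2 fold change of the 9 factors, emodin over vehicle, from edgeR's fit; points are estimates and lines their 95% intervals. Nr2f2 lies at -0.56 and is the single factor that passed after adjustment over all entries tested.

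Hnf4a encodes the nuclear receptor HNF4A, which binds the promoters of apolipoprotein, clotting factor and many enzyme genes. It lies on the plus strand of chromosome 2 (chr2:163506808-163572910, mm10) as a protein-coding gene with 13 exon blocks in GENCODE M21. It has an upstream promoter, known as P2, and a downstream promoter, known as P1, which is the main one of the adult liver. Their RefSeq windows (GRCm38.p6, 200 bases each, from 250 to 51 bases before the start) lie 40.3 kb apart and are shown because the values below are summed over both starts, which the table cannot tell apart. Capitals mark matches to any of the motifs searched on both strands, which were those of ONECUT, forkhead, C/EBP, HNF4 and GATA proteins and a direct repeat.
Hnf4a upstream start, chr2:163506607-163506806, plus strand: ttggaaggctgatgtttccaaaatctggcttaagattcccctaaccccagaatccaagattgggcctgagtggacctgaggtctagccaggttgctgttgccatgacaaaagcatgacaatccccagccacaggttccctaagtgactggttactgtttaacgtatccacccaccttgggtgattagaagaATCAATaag
Hnf4a downstream start, chr2:163546905-163547104, plus strand: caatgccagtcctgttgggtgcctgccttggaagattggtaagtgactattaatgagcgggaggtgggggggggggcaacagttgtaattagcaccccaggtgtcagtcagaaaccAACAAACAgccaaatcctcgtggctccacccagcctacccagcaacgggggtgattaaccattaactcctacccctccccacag
The upstream window holds the core ATTGAT of the ONECUT proteins once, read on the other strand, at bases -59 to -54 counted from the start. The downstream window holds the forkhead motif TGTTTGTT once, at -134 to -127, read on the other strand too. Over both strands of 32851 promoter windows of this length, ATTGAT occurred in 5.8% and TGTTTGTT in 2.22%. These are matches of letters, and binding was not measured.

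Hnf4a mRNA was at 335 CPM in the lowest vehicle liver, at a median of 476 and at 582 in the highest. In emodin livers it was at 465 in the lowest, at a median of 572 and at 801 in the highest. Each of the 8 emodin livers exceeded the vehicle mean, and 4 exceeded the highest vehicle liver, so the groups overlapped. The means were 459 ± 79.4 and 588 ± 100.1 CPM (SD, n = 8 each). The log2 fold change was 0.36 ± 0.12 (SE), with a 95% interval of 0.10 to 0.62, and edgeR's adjusted p was 0.0607 (unadjusted p = 0.00912 in the fit across all entries). Hnf4a passed when total counts replaced TMM scaling (0.39, edgeR adjusted p = 0.0302), with DESeq2 (0.35, adjusted p = 0.0323), without vehicle liver 8 (0.42, edgeR adjusted p = 0.0374) and without emodin liver 8 (0.40, edgeR adjusted p = 0.0385). In none of the other 9 alternatives or 14 fits with 1 liver left out did it pass, and the fold change stayed between 0.28 (without emodin liver 5, which had the highest level) and 0.42.

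The 3 FOXA genes encode forkhead factors that share a DNA-binding domain and bind in liver from the first stages of its development. Foxa1 lies at chr12:57540628-57546916, Foxa2 at chr2:148042877-148046969 and Foxa3 at chr7:19013284-19023538, all on the minus strand. Foxa3 was the most abundant of these FOXA genes per length and had the smallest spread among emodin livers of all 9 factors, whereas Foxa2 varied more among emodin livers than among vehicle livers. Foxa2 ranged from 7.49 to 11.5 CPM in vehicle livers (median 9.80) and from 8.20 to 20.8 CPM in emodin livers (median 13.1). Its 4 high livers were emodin 2, 3, 4 and 7, at 15.8, 15.9, 20.8 and 15.5 CPM, all above the highest vehicle liver, while emodin 1, 5, 6 and 8 lay within the vehicle range, at 9.04, 10.7, 8.20 and 9.98 CPM. The means of Foxa2 were 9.73 ± 1.41 and 13.2 ± 4.40 CPM, with a log2 fold change of 0.45 ± 0.17 and a 95% interval of 0.08 to 0.81 (edgeR adjusted p = 0.0943, unadjusted p = 0.0189). Foxa2 passed in 1 of the 16 fits that leave out a liver, without emodin liver 6 (0.53, edgeR adjusted p = 0.0388), and in 0 of 11 other alternatives.

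Foxa1 was at 11.6 ± 2.28 CPM in vehicle livers (8.44 to 14.7, median 11.5) and at 12.7 ± 2.91 CPM in emodin livers (9.32 to 17.2, median 11.7). The 2 emodin livers above the vehicle range were 3 and 4, at 16.4 and 17.2 CPM, and these also had the 2 highest levels of Foxa2. Its log2 fold change was 0.13, with a 95% interval of -0.17 to 0.44 (edgeR adjusted p = 0.567). Foxa3, the FOXA gene that stays highest in adult liver, was at 49.4 ± 6.61 CPM in vehicle livers (35.4 to 56.0, median 51.0) and at 48.1 ± 3.33 CPM in emodin livers (41.0 to 51.3, median 48.8). All emodin livers lay inside the vehicle range, and the log2 fold change was -0.04, with a 95% interval of -0.21 to 0.14 (edgeR adjusted p = 0.802). The interval of Foxa3 was the narrowest of the 9.

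Cebpa encodes C/EBPα, a leucine zipper factor of glucose and lipid metabolism that restrains the division of hepatocytes. It is a gene of 1 exon block at chr7:35119293-35121928 on the plus strand. Its level ran from 194 to 274 CPM in vehicle livers (median 214) and from 148 to 311 CPM in emodin livers (median 238), so the emodin livers reached beyond the vehicle range on both sides. Emodin livers 2 and 3 lay above it, at 280.5 and 311 CPM, and emodin liver 8 below it, at 148 CPM. The means were 225 ± 30.6 and 238 ± 49.2 CPM, with a log2 fold change of 0.08 and a 95% interval of -0.18 to 0.35 (edgeR adjusted p = 0.702). Without emodin livers 4, 5 and 8 the log2 fold change was 0.24 (edgeR adjusted p = 0.139), and with array weights 0.20 (limma-voom adjusted p = 0.225), which did not pass either.

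Onecut1 (HNF6) and Onecut2 encode cut-homeodomain factors that act in the branching of liver progenitors into hepatocytes and bile duct cells. Onecut1 lies at chr9:74861921-74891781 and Onecut2 at chr18:64340020-64400987, both on the plus strand. Onecut1 was the most variable of the 9 factors in either group. It ran from 2.28 CPM in vehicle liver 2 to 17.1 CPM in vehicle liver 1 (median 7.77), a 7.51-fold range, and from 4.10 to 13.8 CPM in emodin livers (median 8.25), a 3.37-fold range. Its coefficient of variation among vehicle livers, 56.2%, was above that of 97.4% of the 4133 entries whose mean lay within 2-fold of its own. The means were 8.97 ± 5.05 and 8.40 ± 3.40 CPM, and the 95% interval of the log2 fold change, -0.84 to 0.65 around -0.10, was the widest of the 9 (edgeR adjusted p = 0.882). The exons of Onecut1 share 2171 bases with a long noncoding RNA on the same strand, Gm20649, which has no entry of its own under its Ensembl ID, so reads of the pair cannot be told apart.

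Per kb of exon, Onecut2 was at 5.62 CPM in vehicle livers beside 2.18 CPM for Onecut1. Vehicle livers ran from 68.7 to 116 CPM (median 92.8) and emodin livers from 69.7 to 99.0 CPM (median 76.6), and 7 of 8 emodin livers lay below the vehicle mean. The means were 91.3 ± 16.7 and 79.6 ± 9.49 CPM, with a log2 fold change of -0.20 and a 95% interval of -0.42 to 0.03 (edgeR adjusted p = 0.233). The groups overlapped, and Onecut2 passed in none of the 11 alternatives or 16 fits with a liver left out.

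Prox1 encodes a homeobox factor that hepatoblasts need to spread into the liver lobes and that in adult liver binds HNF4A and other nuclear receptors as a corepressor. It lies at chr1:190118035-190170714 on the minus strand. Vehicle livers ran from 75.0 to 136 CPM (median 105) and emodin livers from 105 to 152 CPM (median 125). Emodin livers 5 and 7 lay above all vehicle livers, 7 of 8 lay above the vehicle mean, and 4 vehicle livers (2, 4, 7 and 8) lay below all emodin livers. The means were 105 ± 24.4 and 125 ± 16.9 CPM, with a log2 fold change of 0.25 and a 95% interval of -0.03 to 0.52 (edgeR adjusted p = 0.212). Lymphatic endothelium uses Prox1 too. Of 4 lymphatic markers 2 had enough counts to be tested, 0 passed by edgeR or by DESeq2 (0 at an unadjusted p under 0.05), and their summed level was 13.3 to 22.5 CPM in vehicle and 12.9 to 20.8 CPM in emodin livers. Their part in the level of Prox1 was not tested.

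Nr2f2 encodes COUP-TFII, an orphan nuclear receptor that binds the same direct-repeat elements as HNF4A and can compete with it there. It lies at chr7:70351944-70366735 on the minus strand. Its RefSeq promoter window (GRCm38.p6, bases 250 to 51 before the start) is shown because Nr2f2 is the factor that passed, with the capitals as before.
Nr2f2, chr7:70366797-70366996, minus strand: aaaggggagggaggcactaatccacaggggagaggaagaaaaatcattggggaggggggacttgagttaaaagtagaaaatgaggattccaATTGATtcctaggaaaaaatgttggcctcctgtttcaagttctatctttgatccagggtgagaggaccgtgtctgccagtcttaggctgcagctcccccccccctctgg
The window holds the ONECUT core ATTGAT once, at bases -159 to -154. It holds neither of the forkhead motifs TGTTTAC (2.58% of windows) and TGTTTGTT on either strand. The C/EBP, HNF4, direct-repeat and GATA motifs searched had no match in any window shown.

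Nr2f2 was at 50.7, 43.1, 41.7, 36.5, 43.2, 37.7, 35.0 and 35.5 CPM in vehicle livers 1 to 8. In emodin livers 1 to 8 it was at 27.0, 22.5, 32.0, 25.9, 23.0, 28.6, 34.4 and 26.3 CPM. Every emodin liver lay below every vehicle liver (1.03% of all entries tested), and the nearest pair was emodin 7 at 34.4 and vehicle 7 at 35.0 CPM. Nr2f2 fell from 40.4 ± 5.33 to 27.5 ± 4.10 CPM, a log2 fold change of -0.56 ± 0.10 with a 95% interval of -0.76 to -0.35 (edgeR adjusted p = 0.00218, lower in 8 of 8 livers). It passed in all 11 alternatives (log2 fold change -0.57 to -0.48, adjusted p 1.06e-05 to 0.0140) and in all 16 fits with a liver left out (-0.61 to -0.50). Without emodin livers 4, 5 and 8 the log2 fold change was -0.48 (edgeR adjusted p = 0.0137). An antisense RNA, B130024G19Rik, shares 643 exonic bases with Nr2f2 and has no entry of its own under its Ensembl ID. Whether the counting used strand is not given in the sources used here, so reads of the pair cannot be told apart.

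Endothelial and stellate cells of the liver also express Nr2f2. Of 8 liver endothelial markers 1 passed lower, Kdr, a receptor for vascular growth factor, which was at 27.9 to 42.2 CPM in vehicle livers and at 20.0 to 29.5 CPM in emodin livers (log2 fold change -0.45 ± 0.10, edgeR adjusted p = 0.00918). By DESeq2 2 of the 8 passed lower, and 3 stood at an unadjusted p under 0.05 in edgeR's fit. Of all entries, 5.47% passed lower by edgeR and 29.7% stood at that unadjusted p. Kdr did not pass without emodin livers 4, 5 and 8. The median log2 fold change of the 8 was -0.24, and their summed level was 148 to 229 CPM in vehicle and 140 to 209 CPM in emodin livers, so the ranges overlapped. Of 8 stellate markers 0 passed by edgeR or by DESeq2 (0 at an unadjusted p under 0.05), with a median log2 fold change of -0.32 and summed levels of 172 to 408 CPM in vehicle and 148 to 270.0 CPM in emodin livers. The 2 stellate markers with the smallest p were Colec11 (-0.25) and Col3a1 (-0.60). Over the 8 stellate markers the log2 fold change ran from -1.56 to 0.15. None of the 16 markers was at 0 in all livers, and their part in the fall of Nr2f2 was not tested. The near relatives of Nr2f2, named after their values were seen, were Nr2f1, at 0.554 ± 0.215 and 0.462 ± 0.0797 CPM (log2 fold change -0.26, edgeR adjusted p = 0.491), and Nr2f6, at 29.8 ± 4.80 and 25.8 ± 2.03 CPM (-0.20, edgeR adjusted p = 0.145). Neither passed.

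Hnf4a and Nr2f2 were also set side by side in each liver as a ratio. The CPM of Hnf4a was 7.52 to 16.4 times that of Nr2f2 in vehicle livers (median 11.6) and 17.5 to 34.8 times in emodin livers (median 19.4). The groups did not overlap in this ratio, which was chosen after both genes' values were seen and is given as a description, with no test. Nr2f2 alone already separated the groups and Hnf4a alone did not, so the ratio adds no separate support. Emodin liver 5 had the highest ratio, with the highest Hnf4a level and the second lowest Nr2f2 level, and vehicle liver 8, with the highest Hnf4a of its group, came nearest to the emodin livers.

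**Figure D3:**
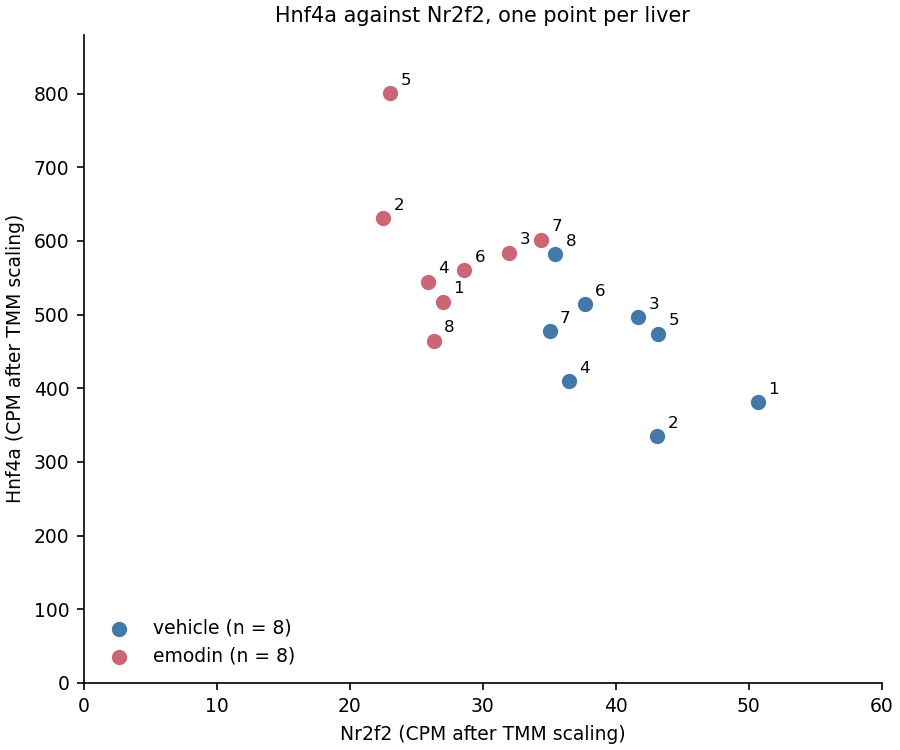
Hnf4a level (vertical axis) against Nr2f2 level (horizontal axis) in CPM after TMM scaling, 1 point per liver, vehicle and emodin livers in different colours, with the liver's number beside it. The emodin livers lie further left on the Nr2f2 axis, at 22.5 to 34.4 CPM against 35.0 to 50.7 CPM, while on the Hnf4a axis the groups overlap.

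Levels of different genes were compared as CPM per kb of merged exons. In vehicle livers the order was Hnf4a (95.0 ± 16.4), Cebpa (85.4 ± 11.6), Foxa3 (24.2 ± 3.25), Prox1 (12.5 ± 2.91), Onecut2 (5.62 ± 1.03), Nr2f2 (4.68 ± 0.618), Foxa2 (4.10 ± 0.594), Foxa1 (3.48 ± 0.686) and Onecut1 (2.18 ± 1.23 CPM per kb). Hnf4a and Cebpa overlapped between livers, as did each neighbouring pair from Onecut2 downward, while Cebpa, Foxa3, Prox1 and Onecut2 formed steps whose ranges did not overlap. In emodin livers the first 4 places were the same, with Hnf4a at 122 ± 20.7 and above Cebpa in 8 of 8 livers, against 6 of 8 vehicle livers. Foxa2 (5.59 ± 1.86) came next, then Onecut2 (4.90 ± 0.585), Foxa1 (3.81 ± 0.874), Nr2f2 (3.18 ± 0.475) and Onecut1 (2.04 ± 0.826 CPM per kb). Nr2f2 thus stood at rank 6 by vehicle mean and at rank 8 by emodin mean, among neighbours whose ranges overlapped. With the longest transcript as the length, Nr2f2 came to 9.57 and 6.50 CPM per kb and stood at rank 5 in both groups, since its merged exons of 8625 bases exceed its longest transcript of 4222 bases.

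**Figure D4:**
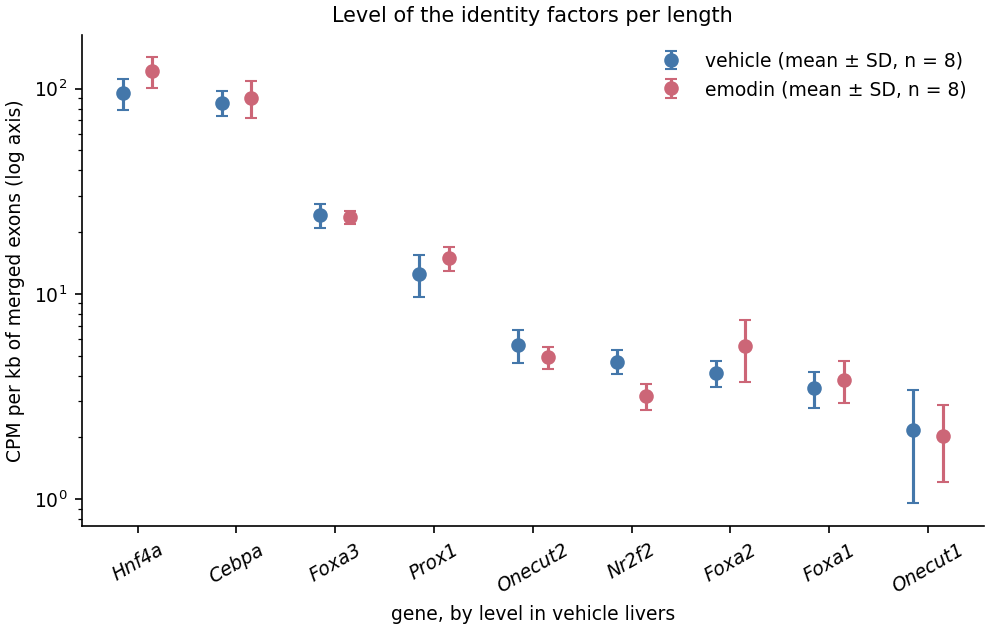
Levels of the 9 factors as CPM per kb of merged exons on a log axis, mean and SD of 8 vehicle and 8 emodin livers, ordered by the vehicle mean. Hnf4a and Cebpa lead in both groups, at 95.0 and 85.4 CPM per kb in vehicle livers, and Onecut1 is lowest at 2.18.

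The 9 factors differed in how steady they were among livers of a group. The coefficient of variation of vehicle livers lay between 13.2% (Nr2f2) and 23.2% (Prox1) for all but Onecut1. These values were still above those of most entries of like level, from 59.8% of such entries for Foxa2 to 93.8% for Prox1. In emodin livers the coefficient ran from 6.93% (Foxa3), lower than in most entries of like level, to 40.4% (Onecut1), with Foxa2 at 33.2%. By the root mean square difference of standardised log2 CPM over the 16 livers, where a smaller value is a closer pattern, Onecut1 and Onecut2 were the most alike pair of factors (0.880), followed by Onecut2 and Nr2f2 (0.930), Foxa1 and Foxa2 (0.946) and Hnf4a and Prox1 (0.998). The least alike were Hnf4a and Nr2f2 (1.79). For each factor, entries outside the 9 were closer than any other factor. Of 12858 entries compared, Onecut2 had rank 50 in closeness to Onecut1 and rank 1645 to Nr2f2. Foxa2 had rank 216 to Foxa1, and Prox1 had rank 1409 to Hnf4a. The difference runs over livers of both groups, so it includes the difference between treatments.

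Among 12858 annotated entries, the patterns closest to Nr2f2 were those of Mtif2, a mitochondrial translation factor (0.361), and Fads3, a member of the fatty acid desaturase family (0.383). Fads3 fell from 18.2 ± 2.11 to 7.03 ± 1.94 CPM (log2 fold change -1.37 ± 0.15, edgeR adjusted p = 8.51e-05), and Mtif2 fell from 30.2 ± 2.11 to 23.5 ± 3.04 CPM (-0.36, edgeR adjusted p = 0.00784). Closest to Hnf4a were Baiap2l1 (0.385; log2 fold change 0.49, edgeR adjusted p = 0.0566) and Nr1i2, which encodes the xenobiotic receptor PXR (0.405). The closest entries were Atraid (0.382) and Bri3 (0.407) for Cebpa, Bcor (0.569) and Tdrp (0.597) for Prox1, and Alg11 (0.539) and Alkbh5 (0.566) for Onecut2. For Foxa1 the closest was Nxf1 (0.621), for Foxa2 they were Apoa5 (0.610) and Tmem263 (0.621), for Foxa3 Tbc1d8 (0.590) and Xndc1 (0.610), and for Onecut1 Apoc2 (0.652) and Abitram (0.701). The livers are shared by all these values, so they carry no test.

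The factors that work beside the 9 in the liver were followed in a list of 26 other liver transcription factors, of which 24 had enough counts to be tested. Of these 6 rose, 4 fell and 14 did not pass, with a median log2 fold change of 0.11. Thus 41.7% of the tested factors passed, beside 13.2% of all entries. Like the 9 factors and the other lists, this list was chosen with earlier results of these data known. Its share beside that of all entries is therefore a description and carries no test. Gata6, a zinc finger factor of early liver development, rose from 5.29 ± 1.46 to 8.65 ± 2.41 CPM (0.71 ± 0.19, edgeR adjusted p = 0.0200), and Cebpd, an inflammation-responsive C/EBP factor, rose from 6.24 ± 1.25 to 10.2 ± 3.78 CPM (0.70 ± 0.19, edgeR adjusted p = 0.0245). Nr1i2 rose from 76.9 ± 11.4 to 109 ± 18.7 CPM (0.50 ± 0.11, edgeR adjusted p = 0.00827). Nfib, a nuclear factor I protein, fell from 84.3 ± 10.5 to 58.0 ± 12.7 CPM (-0.54 ± 0.12, edgeR adjusted p = 0.0103). A further 5 that passed, named after their values were seen, were Gata4 (0.40) and Nr1h3 (0.20), both higher, and Nr5a2 (-0.39), which encodes LRH-1, Klf15 (-0.47) and Zbtb20 (-0.43), all lower.

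Nfib, Nr1i2 and Nr5a2 passed in all 11 alternatives and in all 16 fits with a liver left out. Gata6 and Cebpd did not pass without emodin livers 4, 5 and 8 or in an exact rank-sum test, and Gata6 did not pass with array weights. The other 4 of those named kept their direction in all 16 fits with a liver left out but did not pass in all of them. Of the 11 alternatives, Nr1h3 and Zbtb20 passed in 8 each, and Gata4 and Klf15 in 7 each. Nr1h3 did not pass without vehicle liver 1, 2 or 7 or emodin liver 2 or 5 (0.18 to 0.22). Gata4 did not pass without vehicle liver 3, 5, 6, 7 or 8 or emodin liver 1, 2, 4 or 8 (0.34 to 0.46). Zbtb20 did not pass without vehicle liver 1, 3, 4, 5 or 7 or emodin liver 2, 4 or 8 (-0.48 to -0.37). Klf15 passed only without vehicle liver 1 or emodin liver 1, 3, 6 or 7 among those fits (-0.54 to -0.39). The factors that rose numbered 2 without emodin livers 4, 5 and 8 and 3 by the rank-sum test, and those that fell numbered 2 without vehicle liver 3, 4 or 7 or emodin liver 8.

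**Figure D5:**
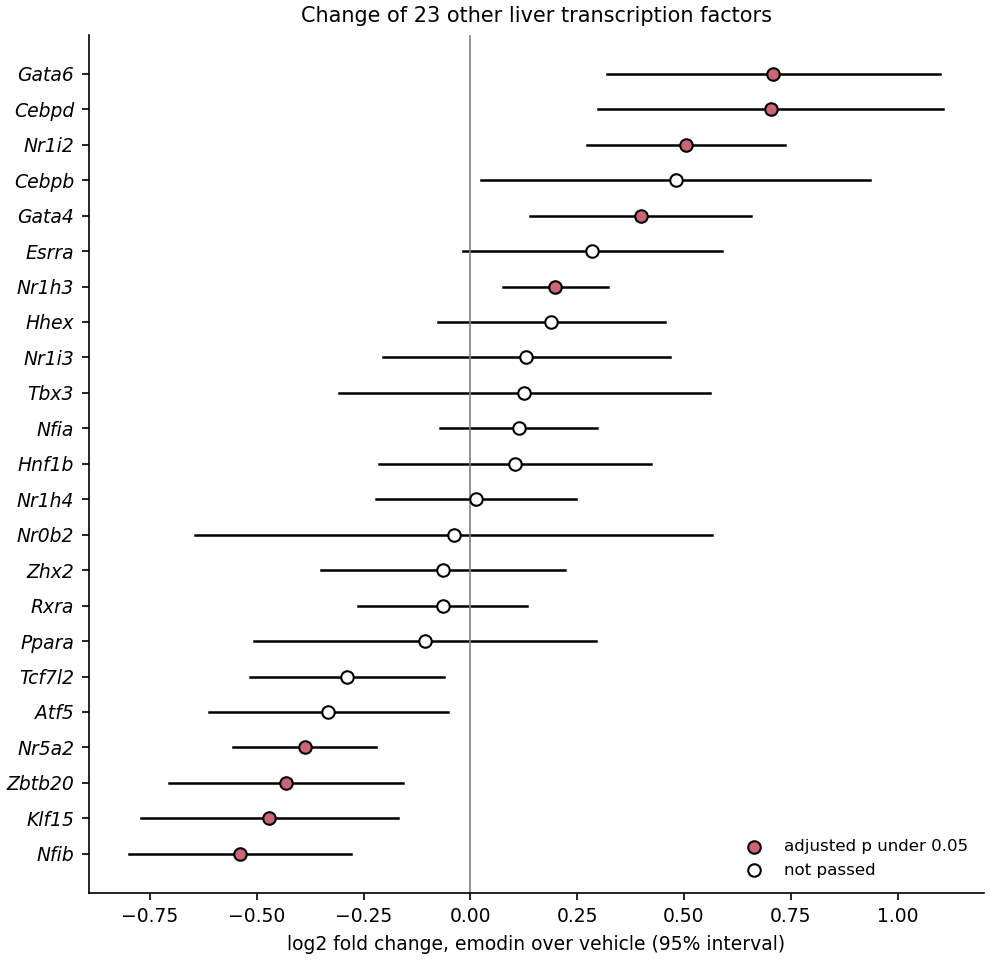
Log2 fold change, emodin over vehicle, of 23 of the 24 tested factors of the list of other liver transcription factors, with 95% intervals from edgeR's fit; colour marks those that passed. Gata6 (0.71) and Cebpd (0.70) lie highest and Nfib (-0.54) lowest.

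Of 13 cofactors through which HNF4A and other nuclear receptors act, 0 passed by edgeR or by DESeq2. At an unadjusted p under 0.05 stood 4 of 13, beside 29.7% of all entries, and the median log2 fold change was -0.04. The 2 with the smallest p were Hdac3, a histone deacetylase (-0.17, edgeR adjusted p = 0.0828), and Smarca4, a chromatin remodelling subunit (0.27, edgeR adjusted p = 0.108). Without emodin liver 1 the number lower was 1, and without emodin liver 3 the number higher was 1.

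The products of hepatocytes, many of them bound by HNF4A, FOXA and C/EBPα factors, mostly did not pass. Of 37 tested, 1 rose, 2 fell and 34 did not pass (8.11% passed, beside 13.2% of all entries), with a median log2 fold change of -0.04. Hamp, which encodes the iron hormone hepcidin, rose from 456 ± 93.2 to 733 ± 308 CPM (0.69 ± 0.20, edgeR adjusted p = 0.0343); it has a near copy, Hamp2, and how reads shared by the pair were counted is not given in the sources used here. Alb, the gene of serum albumin, fell by 0.50 ± 0.15 on the log2 scale (edgeR adjusted p = 0.0309) and was below the lowest vehicle liver in 7 of 8 emodin livers. Slc2a2, the gene of the glucose transporter GLUT2, fell by 0.50 ± 0.16 (edgeR adjusted p = 0.0462), from 497 ± 40.2 to 351 ± 108 CPM. The 3 lay near the threshold. Each kept its direction in all 16 fits with 1 liver left out but did not pass in all of them. Alb did not pass without vehicle liver 3, 4, 5 or 8 or emodin liver 2 or 5 (-0.57 to -0.43). Hamp did not pass when any one of vehicle livers 1 to 5 or emodin liver 2 or 4 was left out (0.48 to 0.76). Slc2a2 passed only without emodin liver 1, 3, 6 or 7 among those fits (-0.58 to -0.42). Without emodin livers 4, 5 and 8, 4 products were higher and 0 lower.

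Of 9 genes of fetal or regenerating hepatocytes, 3 had enough counts to be tested and 0 passed by edgeR or by DESeq2 (0 at an unadjusted p under 0.05). Afp, the gene of alpha-fetoprotein, was at 1.79 ± 0.362 CPM in vehicle livers and 2.11 ± 2.00 CPM in emodin livers, where emodin liver 8 alone was at 6.80 CPM. Sox4 had a log2 fold change of -0.30.

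The tissue label was checked against markers. The 8 hepatocyte markers summed to 102405 to 133386 CPM in vehicle and 60566 to 109358 CPM in emodin livers, and 1 of them, Alb, passed lower. Alb made up most of this sum, with a mean of 84492 of 115516 CPM in vehicle and 59544 of 88411 CPM in emodin livers. The median log2 fold change of the 8 was -0.10, and 1 stood at an unadjusted p under 0.05 in edgeR's fit. Pancreatic acinar markers were at most 1.17 CPM in sum, with 2 of 6 at 0 in all livers. Biliary markers (7 of 8 tested, 0 passed by edgeR, 1 by DESeq2, 1 at an unadjusted p under 0.05) summed to 38.8 to 67.3 CPM in vehicle and 35.4 to 177 CPM in emodin livers. Only emodin livers 4 (177 CPM) and 8 (119 CPM) lay above the vehicle range, and the other emodin livers were at or below 48.6 CPM. Macrophage markers (8 tested, 0 passed by edgeR, 1 by DESeq2, 1 at an unadjusted p under 0.05) summed to 125 to 554 and 189 to 510 CPM. Neutrophil markers (3 of 6 tested, 0 passed by edgeR or by DESeq2, 0 at an unadjusted p under 0.05) stayed at or below 7.56 CPM. T and B cell markers summed to 4.66 to 13.1 CPM in vehicle and 1.53 to 5.43 CPM in emodin livers, with a median log2 fold change of -0.93. Of these 8 markers 1 passed lower by edgeR and 2 by DESeq2, and 5 stood at an unadjusted p under 0.05. Among all entries the shares were 5.47% lower by edgeR and 29.7% at an unadjusted p under 0.05. The part of these cells in the results on the 9 factors was not tested.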

How the data were processed

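Liver RNA was sequenced in 16 libraries, 8 per group. The table deposited by the authors holds estimated counts per gene, whole numbers that are scaled neither by depth nor by length, although its name speaks of FPKM. Per the submitters' processing notes, the tools were HISAT2 (no version), HTSeq 0.6.1, Cufflinks 2.2.1, cutadapt 1.9.1 and SAMtools 0.1.19, and the build was mm10. Their roles, the annotation, the strand setting and the treatment of reads shared between genes are not given in the sources used here. Rounding for the count model changed 0 values.

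Entries were filtered with filterByExpr, scaled by TMM and tested with edgeR 4.0.16 (R 4.3.3; robust quasi-likelihood F test, group as the single term, Benjamini-Hochberg adjustment). The median log2 fold change and the list counts are descriptions. DESeq2 1.42.0, limma-voom 3.58.1 with array weights, an exact rank-sum test, other scalings and filters, and leaving out each liver were alternatives. The procedure was tested on simulated counts drawn with the means and spread of these data. These counts held no livers set apart from their group, so that test does not cover the emodin livers of low array weight. Levels are CPM after TMM scaling (mean ± SD), with exon lengths from GENCODE M21. RefSeq promoter entries were found for 8 of the 9 factors.

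The 9 factors and the 14 other gene lists were chosen with earlier results of these data known. Named are all 9 factors, up to 4 passing genes per list by size of change (otherwise the 2 with the smallest p), and the 2 entries closest in pattern to each factor; a few genes that these rules pick are not reported here. Estimated counts have no molecular identifiers, so each test rests on the spread between livers. No pairing of the livers by the numbers in their titles was seen: same-number correlations of deviations ran from -0.149 to 0.245, and 1 of 8 was over 0.1. A pairing that leaves little trace in expression would not be seen this way.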

Additional observations from a re-analysis of the deposited data

Results flagged for a closer look

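In 92 groups of 8 livers (each named gene in each treatment), 13 had a highest or lowest liver set far apart from the rest by Dixon's criterion for the gap over the range, where chance flags about 1 in 20 groups. None of the 13 was one of the 9 hepatocyte factors. Among factors and cofactors that work with them, Cebpd stood at 18.1 CPM in emodin liver 5, Nr2f1 at 1.01 CPM in vehicle liver 8, and Hdac3 at 28.2 CPM in vehicle liver 5. Emodin liver 5 also stood apart for Baiap2l1, the entry closest in pattern to Hnf4a, at 112 CPM. The hepcidin gene Hamp was at 1420 CPM in emodin liver 2, Afp at 6.80 CPM in emodin liver 8, and Sox4 at 2.53 CPM in emodin liver 4. Vehicle liver 8 stood apart for the acute phase genes Orm2 (24.1 CPM) and Saa2 (46.6 CPM). Vehicle liver 4 did so for the macrophage markers Cd68 (14.6 CPM) and Clec4f (137 CPM). The lymphatic marker Ccl21a was at 3.56 CPM in vehicle liver 2 and at 2.76 CPM in emodin liver 7.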

How the results depend on the processing

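Nr2f2 kept its direction and passed in all 11 alternatives and all 16 fits with 1 liver left out. The number of hepatocyte factors that passed was 2, with 1 higher, with total counts in place of TMM (1641 entries passed, 961 higher) and with DESeq2 (2485 entries passed, 1406 higher), and it ran from 1 to 2, with 0 to 1 higher, over the left-out livers. Entries that passed ran from 1246 to 2200 over the left-out livers (709 to 1333 higher, 521 to 903 lower). With the replicate block 1263 passed, 628 of them higher and 635 lower. Of the 8 vehicle livers, 2 correlated best with the emodin liver of their own number. Without emodin livers 4, 5 and 8, an alternative chosen after seeing the data, 734 entries were higher. Onecut1, which did not pass anywhere, had a log2 fold change of 0.026 with the replicate block and -0.24 to 0.11 over the left-out livers. Afp came to -0.32 with array weights, -0.11 with the block, -0.52 without emodin livers 4, 5 and 8 and -0.31 to 0.37 over the left-out livers. Spp1 came to -0.11 without emodin livers 4, 5 and 8, Ccl21a to -1.16 to 0.024 and Cela2a to -0.33 to 0.12 over the left-out livers. The cause of these changes was not tested.

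Counts of lists moved as follows. Other liver transcription factors that rose numbered 2 without emodin livers 4, 5 and 8, 3 by the rank-sum test and 4 to 6 over the left-out livers, and those that fell 2 to 5. Hepatocyte products that rose numbered 2 with DESeq2, 0 with the replicate block or the rank-sum test, 4 without emodin livers 4, 5 and 8 and 0 to 2 over the left-out livers. Those that fell numbered 4 with total counts or DESeq2, 1 with array weights, 0 with no filter or without emodin livers 4, 5 and 8, and 0 to 3 over the left-out livers. Cofactors ran from 0 to 1 in each direction over the left-out livers. Acute phase genes numbered 5 with array weights. Endothelial markers that fell numbered 2 with the 1 CPM filter, with DESeq2 or without loci that lack an Ensembl ID, 0 without emodin livers 4, 5 and 8 and 1 to 2 over the left-out livers. T and B cell markers that fell numbered 2 with DESeq2, 0 with no filter, the 1 CPM filter, array weights, the rank-sum test or without emodin livers 4, 5 and 8, and 0 to 2 over the left-out livers. Hepatocyte markers that fell numbered 0 with no filter, the replicate block or without emodin livers 4, 5 and 8 and 0 to 1 over the left-out livers. Biliary markers that rose numbered 1 with DESeq2, and macrophage markers 1 with DESeq2 or the replicate block and 0 to 1 over the left-out livers. The permutation test planned for factors with too few counts was not run, since all 9 were tested.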
